A study of Strongylocentrotus droebachiensis with 6 samples.

Results

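The genes ebr1 and SPARC encode secreted or cell surface proteins of the extracellular matrix. They were taken as the rows with exactly these symbols, which are 2 of 31261 rows of the expression table and belong to its 372 rows with a gene name. The table holds polyA RNA sequencing of green sea urchin embryos, Strongylocentrotus droebachiensis, wild type in all samples, collected as mesenchyme blastulae. Control embryos, left intact, gave 3 samples. Another 3 samples came from their half-size siblings, raised from blastomeres separated at the 2-cell stage. The protocol given for all samples kept fertilised eggs in 3-amino-1,2,4-triazole (ATA) at 1 mM so that their envelopes stayed soft, separated blastomeres 3.5 h after fertilisation by washes of 15 min in total without calcium and magnesium and by a syringe needle, and cultured both groups at 8 °C until 46 h. The source label speaks of tissue explants, while the protocol describes whole embryos. Adults came from the Barents and White Seas over several breeding seasons, and no label ties a sample to a season or a sea.

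The sea urchin embryo is a hollow ball of cells between a pair of matrices. Its outer face carries the hyaline layer and apical lamina, which hold the cells together, and its inner face rests on a basement membrane that lines the blastocoel, the cavity that skeletogenic cells enter at this stage. EBR1 is known from Strongylocentrotus eggs as the egg bindin receptor, a surface protein with domains of the ADAMTS metalloprotease family to which the sperm protein bindin adheres. SPARC, also called osteonectin, is a secreted calcium-binding glycoprotein that binds collagens, and in other animals it is a component of basement membranes and of mineralising tissue such as vertebrate bone.

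The recovered read totals ran from 1804336 to 2294541 per library. Per the file headers, reads had been assigned to the gene models of a related species, Strongylocentrotus purpuratus, so a level can also reflect how well the sequences of the species match, alike in both groups. Of the stage's marker genes, all 6 skeletogenic ones with a matching row were measured, as were 3 each for endoderm, ectoderm and apical neuroectoderm and 1 for non-skeletogenic mesoderm. The headers give the group of a column and not its replicate. Across 11129 rows with a mean of at least 10 normalised counts, each half-size column deviated from its group mean together with 1 control column (r = 0.76, 0.63 and 0.52). For any other half-size and control column r was at most 0.00930, but centring on the group means itself lowers these values. Averaged over a matching of all columns, r was 0.64 here and 0.21 for the next best matching. The matched pairs, called A, B and C, were found from the values: the labels speak of siblings but match no columns. The columns of each pair stood side by side (columns 2 and 3, 4 and 5, and 6 and 7), though no label gives this order a meaning. Many rows had their lowest or highest levels in both libraries of pair A, which was not counted for pairs B and C. The blocked difference of ebr1, the spread over libraries and the likeness of profiles are therefore also given without pair A.

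ebr1 was abundant in every library and did not differ detectably between half-size and control embryos. Its normalised read counts, which are reads divided by the authors' size factor for the library, were 1787, 3024 and 2939 in the half-size libraries of pairs A, B and C. In the control libraries of the same pairs they were 1968, 2660 and 2489. The groups overlapped, and both libraries of pair A lay below the other 4. The half-size mean was 2583 ± 691 and the control mean 2372 ± 360 (SD, n = 3 each). These values rest on 1804 to 3435 reads per library, for which the counting error alone is 1.71% to 2.35%. As a share of the library, ebr1 took 1219 ± 358 reads per 1000000 (RPM) in the half-size group and 1150 ± 218 RPM in the control group (SD, n = 3 each). By reads, which also depend on transcript length, it ranked between 89th and 215th in its libraries. In these whole-embryo RNA samples, fewer cells of a type and less RNA per cell cannot be told apart.

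SPARC also lay at nearly the same level in both groups. Its normalised read counts were 1054, 1848 and 1584 in the half-size libraries of pairs A, B and C, and 1108, 1868 and 1495 in the controls. The order of the libraries was by pair in both groups, with A lowest, C between and B highest. The half-size mean was 1495 ± 404 and the control mean 1490 ± 380 (SD, n = 3 each). The counts came from 1064 to 2169 reads, with a counting error of 2.15% to 3.07%. Its share was 707 ± 218 RPM in the half-size group and 725 ± 217 RPM in the control group (SD, n = 3 each), and it ranked between 164th and 380th by reads.

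**Figure D1:**
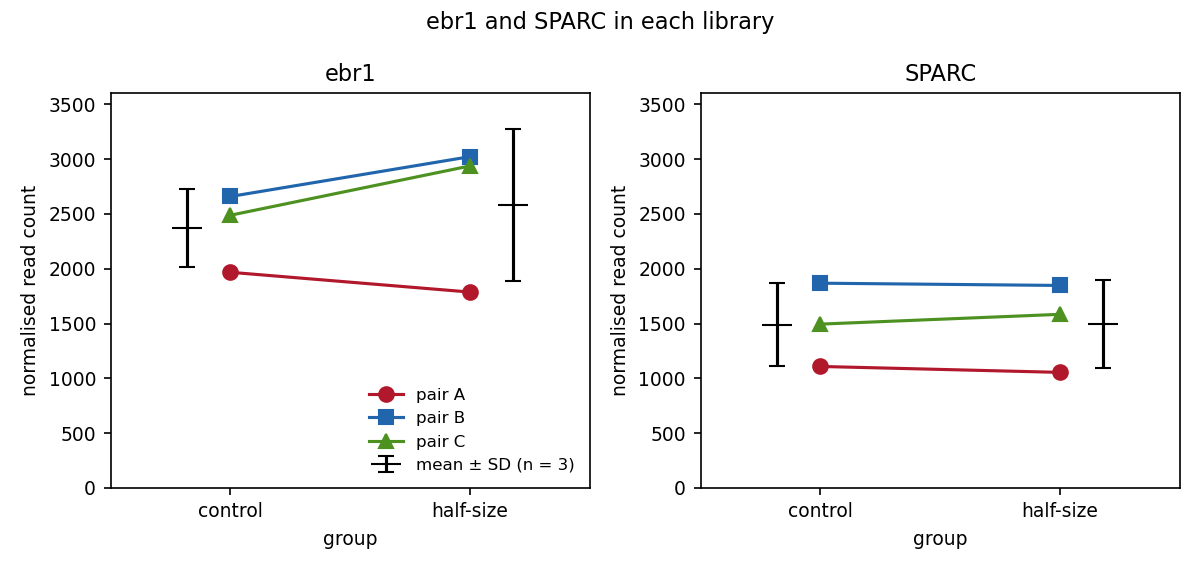
Normalised read counts of ebr1 (left) and SPARC (right), with 1 point per library, a line joining the control and half-size library of each pair, and black bars for the mean ± SD of each group (n = 3). The lines of SPARC are nearly flat, from 1108 to 1054 in pair A at the bottom and from 1868 to 1848 in pair B at the top, while those of ebr1 run down in pair A and up in pairs B and C.

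The comparison asked whether transcript levels differ in embryos that develop at reduced size. Across all rows with a mean of at least 1, limma-trend without a pair term called 0 of 18016 rows (0%) at an adjusted p under 0.05, with 242 rows at unadjusted p under 0.05. The log2 difference, half-size minus control, was 0.095 for ebr1 (95% confidence interval -0.42 to 0.61; adjusted p = 1.00 in limma-trend), a 1.07-fold ratio with an interval of 0.746-fold to 1.53-fold. For SPARC it was -0.00150 (95% interval -0.58 to 0.57; adjusted p = 1.00 in limma-trend), a ratio of 0.999 with an interval of 0.671 to 1.49. A p above the threshold does not show equal levels, and true ratios anywhere in these intervals remain possible.

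With the pair as a block the intervals were narrower. The interval for ebr1 became -0.17 to 0.36 on the log2 scale, or 0.889-fold to 1.28-fold (adjusted p = 0.954 in blocked limma-trend). That of SPARC became -0.25 to 0.25, or 0.841-fold to 1.19-fold (adjusted p = 0.999 in blocked limma-trend). The block called 3 of 18016 rows (0.0167%), and neither gene was among them. Nor did either gene pass in edgeR or limma-voom (0% of 11346 rows called by each), in DESeq2 (0.0167% of rows called), or with the block in edgeR (11 of 11346 rows, 0.097%) or DESeq2 (21 of 9574 rows, 0.219%). The block treats the pairs as known although the values chose them, and this choice can make the intervals too narrow. In the authors' deposited table the log2 fold change was 0.12 (SE 0.26) for ebr1 and 0.00454 (SE 0.29) for SPARC, both at an adjusted p of 1.00; that table had 4 of 23976 rows (0.0167%) at an adjusted p under 0.05.

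**Figure D2:**
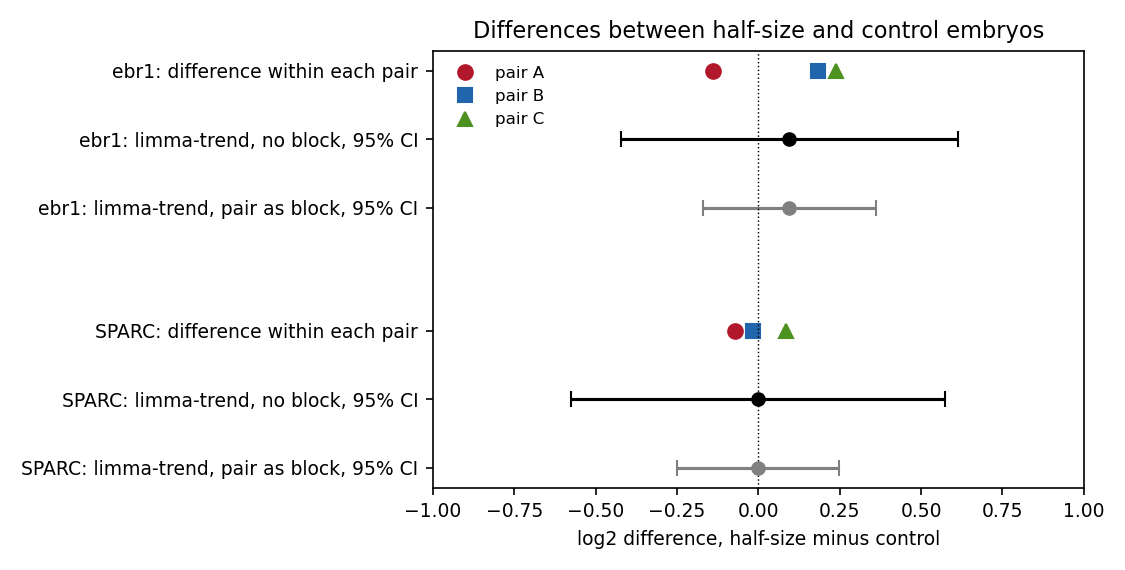
Log2 differences (half-size minus control) of ebr1 and SPARC, with the differences within pairs A, B and C as coloured points and the limma-trend estimates with 95% confidence intervals without (black) and with (grey) the pair as a block. All 4 intervals include 0, and the points of SPARC lie closer to 0 than those of ebr1.

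Within pairs, SPARC repeated its level closely. In pair A the half-size library lay below the control by a log2 difference of -0.072, or -4.88%, where the counting standard error from the reads of both libraries was 0.062. The log2 difference was -0.016 in pair B (counting error 0.044) and 0.084 in pair C (counting error 0.055). In no pair did SPARC differ by more than 1.53 counting errors. Its largest difference within a pair, taken without sign, was 0.084, and among 198 other rows with a mean within 0.5 log2 units of its own, 9 (4.55%) had a value as small or smaller. The part of the log2 SD left after pair and group was 0.056 for SPARC, and 11.1% of these rows had a smaller one. Counting error is the least error possible and leaves out variation between embryo cultures and library preparation. It also leaves out any error of the size factors that scale the libraries.

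For ebr1 the differences within pairs exceeded counting error and did not share a direction. The half-size library had fewer ebr1 counts in pair A, by a log2 difference of -0.14 (counting error 0.047). It had more in pair B, by 0.18 (counting error 0.036), and in pair C, by 0.24 (counting error 0.041). In multiples of the counting error these were -2.94, 5.17 and 5.83. Of 121 other rows of like abundance, 60 (49.6%) had a largest within-pair difference as small as that of ebr1 or smaller, and 66.9% had a smaller SD left after pair and group. Without pair A the blocked difference was 0.21, and its interval of -0.17 to 0.60 included 0 (adjusted p = 0.999 in blocked limma-trend). The variance in that fit came mostly from other rows. This interval and p-value therefore do not measure the spread of ebr1 between pairs B and C, where it differed by 0.18 and 0.24. They cannot decide whether ebr1 differs in these pairs. The blocked difference was 0.051 without pair B and 0.023 without pair C.

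Over all 6 libraries, the level of both genes varied mostly from pair to pair, and for ebr1 this rested on pair A. For SPARC, 99.0% of the sum of squares of log2(normalised count + 1) over the 6 libraries lay between pairs, 0.000530% between groups and 0.983% in the rest. For ebr1 these shares were 88.5%, 2.83% and 8.69%, and over all 11129 rows together they were 74.9%, 9.0% and 16.1%. A share between pairs is raised by the way the pairs were found. The SD of the log2 values over the 6 libraries was 0.31 for ebr1 and 0.36 for SPARC. Among the other rows of like abundance, 77.7% of 121 had a smaller SD than ebr1 and 77.3% of 198 a smaller SD than SPARC. Without pair A the share between pairs was 9.28% for ebr1, with 89.2% between groups, and 95.3% for SPARC, with 1.48% between groups, against 58.6% and 20.5% over all rows. Pair A held the lowest levels of both genes and the only negative ebr1 difference within a pair. Leaving it out therefore tends to move the ebr1 shares from pair to group, and these shares are no test of a group difference. The SD over the remaining 4 libraries was 0.13 for ebr1 and 0.16 for SPARC, and 32.2% and 40.4% of the same rows had a smaller one. Neither gene varied more than most rows of like abundance once pair A was left out. That pair was left out after the data were seen, and its removal tends to lower the SD of genes that are lowest in it.

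In both libraries of pair A the genes lay below all 4 others. The mean log2 level of pair A minus that of the other libraries was -0.56 for ebr1 and -0.65 for SPARC. This pattern was shared by 1795 of 11129 rows (16.1%), while 2003 rows (18%) had their highest values in both libraries of pair A. The summed skeletogenic markers were higher in pair A, with 10313 and 7307 normalised counts in its half-size and control libraries against 3621 to 5175 in the other 4. Summed endoderm markers were 6352 and 5970 in pair A against 2625 to 4122 elsewhere, and summed ectoderm markers 4650 and 3211 against 2337 to 2513. Markers of apical neuroectoderm (377 to 568) and the non-skeletogenic mesoderm gene gcm (104 to 531) had pair A neither lowest nor highest. The part of these cell types in the levels of ebr1 and SPARC was not tested.

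The ratio of ebr1 to SPARC reads within a library needs no scaling between libraries. It was 1.70, 1.64 and 1.86 in the half-size libraries of pairs A, B and C and 1.78, 1.42 and 1.67 in the controls. All 6 ratios thus lay between 1.42 and 1.86, and the groups overlapped. The ratio averaged 1.73 ± 0.113 in the half-size group and 1.62 ± 0.180 in the control group (SD, n = 3 each), and the log2 ratio differed by 0.097 (two-sided exact permutation p = 0.5; 3 against 3 allow no p below 0.1). Without the control library of pair B, which had the lowest ratio, the difference was 0.00604. The ratio compares reads and not molecules, since it was not corrected for transcript length.

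The profiles of both genes over the 6 libraries resembled each other. Likeness was measured as the root mean square difference of log2(normalised count + 1) after each gene was centred on its own mean, and was 0.12 between ebr1 and SPARC. Of all 11128 other rows with a mean of at least 10, 61 lay nearer to ebr1 than SPARC did, and 45 lay nearer to SPARC than ebr1 did. The median row was 0.43 from ebr1 and 0.46 from SPARC. Without pair A the distance was 0.14, and 1022 rows (9.18%) lay nearer to ebr1 than SPARC did, so the closeness of the profiles relative to other rows depended on pair A.

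Among the 190 other named genes, those nearest to ebr1 were duox1 at 0.081, EGFIII and Not at 0.11 each, and SPARC. The gene duox1 encodes a dual oxidase, an enzyme that makes hydrogen peroxide, and had 846 and 878 normalised counts in the half-size and control libraries of pair A against 1066 to 1342 in the others. EGFIII encodes a fibropellin, an EGF-repeat protein of the apical lamina, and had 1168 and 1175 against 1341 to 1658. Not is a homeobox gene, with 444 and 474 against 632 to 791. Nearest to SPARC were duox1 at 0.10, the Src-family kinase gene FRK and ebr1 at 0.12 each, and eif4e3, a gene of the cap-binding eIF4E family, at 0.15. FRK and eif4e3 had means of only 13 and 17.9 normalised counts, so their profiles carry large counting errors. Without pair A, EGFIII was the nearest named gene to ebr1 and FRK the nearest to SPARC. These are descriptions of 6 libraries that share the pair structure, and carry no test.

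**Figure D3:**
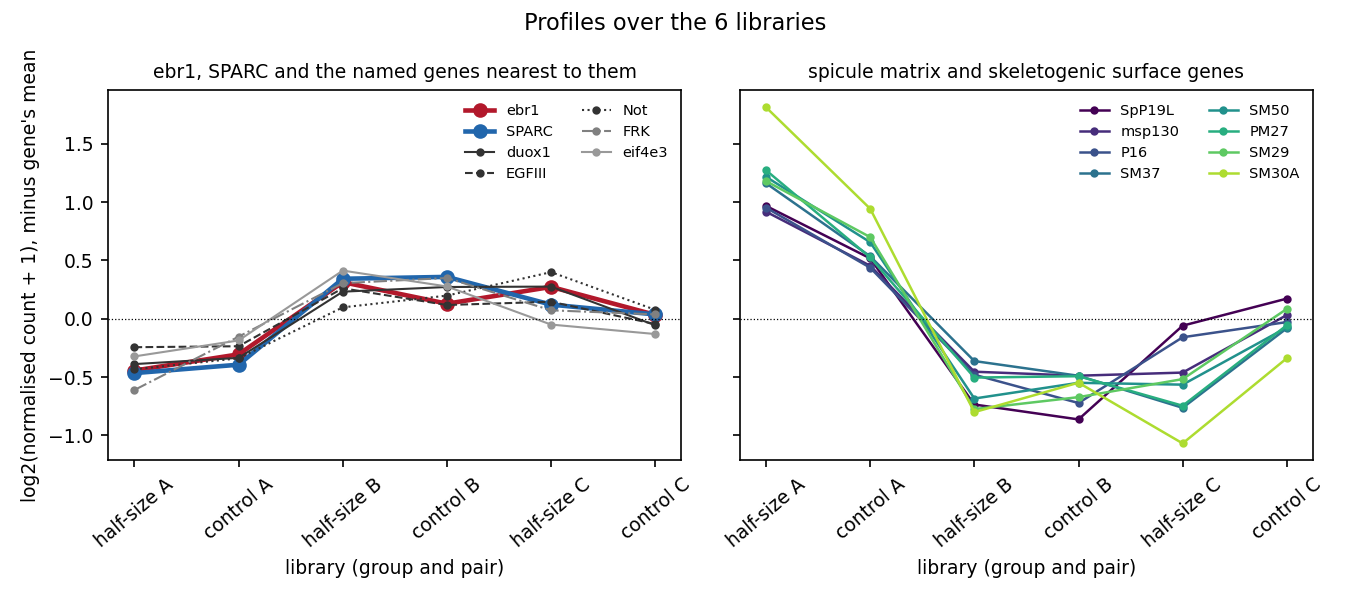
Log2(normalised count + 1) minus each gene's own mean over the 6 libraries (named by group and pair), for ebr1, SPARC and the named genes nearest to them (left) and for 8 spicule matrix and skeletogenic surface genes (right). The genes on the left lie below their mean in both libraries of pair A, and those on the right lie above it.

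Other matrix genes were drawn from lists matched by symbol, and beside ebr1 and SPARC 0 of 22 measured genes passed in limma-trend with or without the block (background 0% and 0.0167% of rows). Their median log2 difference was 0.019, against -0.000467 over all rows. In the apical matrix and egg surface list, 5 genes other than ebr1 were measured, 3 with positive and 2 with negative differences and a median of 0.065. The fibropellin gene egf1 had 6666, 5655 and 9861 normalised counts in the half-size libraries of pairs A, B and C and 9920, 8266 and 8236 in the controls. Its log2 difference was -0.29 (95% interval -0.77 to 0.20 in limma-trend), with half-size below control in pairs A and B and above it in pair C. In blocked limma-trend without pair C, egf1 passed at a log2 difference of -0.56 (adjusted p = 0.00501, n = 2 pairs; 31 of 17954 rows, 0.173%, passed in that fit). With 2 pairs, the variance in that fit came mostly from other rows.

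No other gene of the list passed in any fit. EGFIII differed by 0.11 on the log2 scale, with a half-size mean of 1452 ± 254 and a control mean of 1339 ± 163 normalised counts (SD, n = 3 each). EGF2, a gene for secreted EGF-domain peptides, differed by 0.065, with means of 2636 ± 511 and 2558 ± 756 (SD, n = 3 each). Bindin, the sperm ligand of EBR1 (row BND), had 0 to 2.05 normalised counts in any library, and CGSP1, a cortical granule protease of the egg, had 5.17 to 15.8.

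In the basement membrane and blastocoel matrix list, 4 genes other than SPARC were measured, all of them collagen genes, 1 with a positive and 3 with negative differences and a median of -0.048. COLP3alpha averaged 828 ± 351 normalised counts in the half-size group against 831 ± 118 in controls (SD, n = 3 each), and COLP4alpha 617 ± 199 against 597 ± 22.4 (SD, n = 3 each). Unlike SPARC, both were highest in pair A's half-size library and lowest in that of pair C. Within pairs their log2 differences were 0.30, 0.080 and -0.65 for COLP3alpha and 0.40, 0.17 and -0.60 for COLP4alpha in pairs A, B and C. COLP2alpha had 31.6 ± 10.6 against 42.4 ± 13.3 and COLP1alpha 6.17 ± 5.19 against 2.60 ± 1.30 normalised counts (SD, n = 3 each). LOXL2, a lysyl oxidase gene whose product crosslinks collagen, had single reads in the half-size libraries of pairs A and B and none elsewhere, and was not tested.

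The 4 measured matrix protease genes had positive differences between the group means of log2 values, with a median of 0.74, and none passed with or without the block. Of all rows in limma-trend, 49.9% had a positive difference. The membrane-type metalloprotease genes MMP14 and MMP16 differed by 1.02 and 0.25, the tolloid-type protease gene BMP1 by 0.52 and the hatching enzyme gene HE by 0.96 on the log2 scale, and MMP14 and BMP1 were higher in the half-size library of each pair. How many of all rows were higher in the half-size library of each pair was not counted. The signs of HE and MMP16 rested on single libraries. For HE the log2 differences within pairs A, B and C were -0.69, 0.045 and 3.53, and its difference turned to -0.29 when pair C's half-size library was left out and to -0.00800 when pair A's control was. For MMP16 they were 0.68, 0.56 and -0.49, and its difference turned to -0.23 when pair A's half-size library was left out and to -0.17 when pair B's control was. In the block without pair A (2 pairs), where 80 of 17846 rows (0.448%) passed, HE passed at 1.79 and MMP14 at 1.41 (adjusted p = 8.49e-10 and 3.80e-09 in limma-trend). With only 2 pairs, limma-trend took the variance of a gene mostly from other rows. These p-values therefore do not measure the spread between pairs B and C, which for HE were 0.045 and 3.53, so its pass rested on pair C. Like ebr1 and SPARC, HE was lowest in pair A, with 5.94 and 10.2 normalised counts against 39.96 to 471 elsewhere. Syndecan (Sdc), a cell surface proteoglycan and the 1 receptor gene measured, averaged 3751 ± 125 normalised counts in the half-size group against 3993 ± 345 in controls (SD, n = 3 each).

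The 8 measured genes of the spicule matrix and skeletogenic cell surface had a median log2 difference of 0.00839 in limma-trend, with 5 above and 3 below 0. This split depended on the fit. SM50, SM29 and SM30A, negative in limma-trend, were positive in edgeR (0.17, 0.097 and 0.43). With reads scaled to library totals, msp130, SM37 and PM27 became negative (-0.040, -0.018 and -0.026). All 8 were highest in both libraries of pair A, the reverse of SPARC and ebr1. Since P16, SM37, SM50 and msp130 also belong to the summed skeletogenic markers, this is not separate from the height of those markers in pair A. msp130, a surface glycoprotein gene of skeletogenic cells, had 5464, 2110 and 2099 normalised counts in the half-size libraries of pairs A, B and C and 3962, 2060 and 2955 in the controls. Half-size exceeded control in pair A for all 8 genes, by 0.45 to 0.87 on the log2 scale, and lay below it in pair C for all 8, by -0.13 to -0.73. The corresponding SPARC differences of -0.072 and 0.084 were smaller and of opposite sign, and no test of this contrast was made. At -1.16 and 1.53 counting errors, the signs of SPARC cannot be told from counting noise. The 8 spicule genes were read in the same libraries. How many of all rows had their signs in pairs A and C was not counted.

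**Figure D4:**
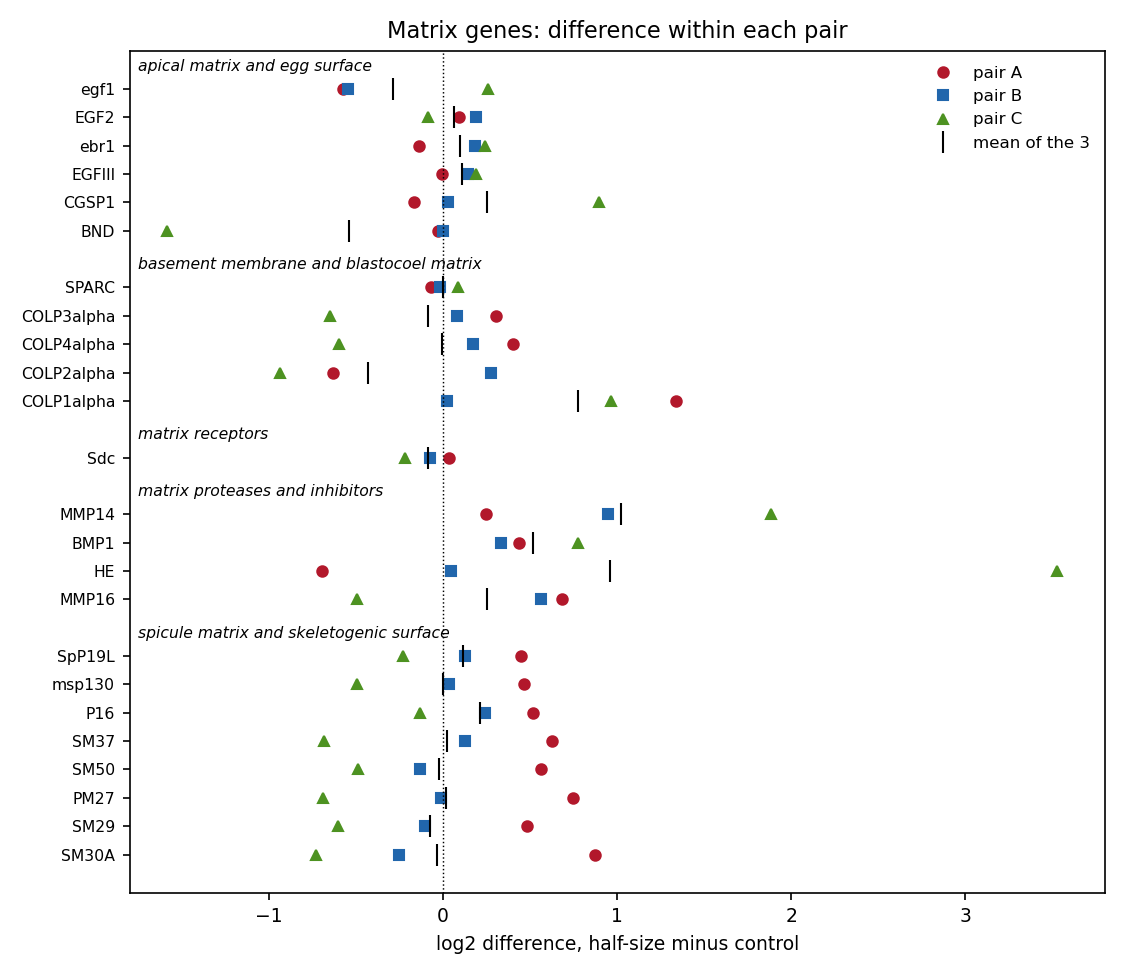
Log2 difference (half-size minus control) within pairs A, B and C for the 24 measured matrix genes including ebr1 and SPARC, grouped by list, with a black bar at the mean of the 3 pairs. The points of SPARC span -0.072 to 0.084 and those of ebr1 -0.14 to 0.24, while the spicule genes lie to the right of 0 in pair A and to the left in pair C.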

How the data were processed

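The labels' protocols describe TruSeq Stranded mRNA libraries. Bowtie2 2.2.2 (mapping software), DESeq and edgeR appear, with no role stated, per the submitters' processing notes. The file headers name gene identifiers of the NCBI annotation of Spur_4.2. How reads were counted, with which strand setting and filters, is not given in the sources, so reads of overlapping or antisense genes and near-identical copies cannot be told apart. The authors deposited a signal per gene and library, read counts divided by a size factor. All values (100%) were whole multiples of the column's step within 1e-06, so reads were recovered. The deposited table also gives the authors' log2 fold change, test score and p-value. No columns of other samples were present.

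The planned unit was scaled values, so the main test was limma-trend from limma 3.58.1 under R 4.3.3, run on log2(value + 1). Rows needed a mean of 1 or more (18016 rows), and p-values were adjusted by Benjamini-Hochberg at a threshold of 0.05; such differences understate changes of low genes. edgeR 4.0.16, limma-voom and DESeq2 1.42.0 on recovered reads were alternatives. The tests were tested on simulated data that had no differences between pairs and the same dispersion (spread beyond counting error) in every row. That does not show how they perform where pairs differ, as they do here. The p-values of fits without the block measure the spread between samples that the labels call biological replicates. Those of fits with the block measure the spread left after pair and group. No libraries of a group agreed within sampling noise (mean chi-square per row 9.09 to 15.7, over rows with at least 20 reads).

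Members and lists were chosen with earlier results of these data known. EGFIII, CGSP1, BND, Sdc and SpP19L were added to the lists after the symbols were seen; lox, also a homeobox gene symbol, was left out. Named genes were up to 6 per list by mean value, and the 4 named rows nearest to each member. Counting errors cover counting only. No sequence is printed, because no reference was used here.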

Additional observations from a re-analysis of the deposited data

How the results depend on the processing

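Replicate numbers appear in the labels and not in the columns, so the replicate block used pairs A, B and C. limma-trend called 0 rows and DESeq2 4. Under the replicate block the counts were 3 (limma-trend), 11 (edgeR), 21 (DESeq2), 80 without pair A, 31 without pair C and 0 without pair B; leaving out single libraries gave 0 to 0. The causes were not tested. ebr1 and SPARC passed in none of 21 alternatives each (adjusted p 0.954 or higher). The ebr1 difference of 0.095 stayed positive except when single libraries were left out (range -0.038 to 0.34; negative without the control library of pair A, -0.034, the half-size library of B, -0.038, or of C, -0.017). Such fits break up a pair and mix pair with group. SPARC, at -0.00150, ranged from -0.20 to 0.23 over these (positive without the half-size library of A, 0.23, or the control library of B, 0.18, or C, 0.017). It was positive in DESeq2 (0.00477) and, with the replicate block, without pair A (0.034) and without pair B (0.00578). The ratio difference of 0.097 ranged from 0.00604 to 0.17 without single libraries and was 0.097 with the replicate block (exact p = 0.5, smallest possible 0.25) or a pseudocount of 5.

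For 14 other genes, 254 of 277 values kept direction and side of the threshold, and 8 genes were never reversed. The spicule matrix and skeletogenic surface genes were not counted here. COLP4alpha (-0.00723) became 0.043 in edgeR, 0.049 in DESeq2 and, with the replicate block, 0.29 without pair C, where COLP3alpha (-0.088) became 0.19, HE -0.32 and CGSP1 (0.25) -0.071. Without pair A (2 pairs), HE (1.79) and MMP14 (1.41) passed with the block, which called 80 of 17846 rows. The p-values of that fit rest mostly on the variance of other rows. Over single libraries left out, the ranges were -0.22 to 0.27 for COLP4alpha, -0.40 to 0.24 for COLP3alpha, -0.29 to 2.75 for HE, -0.087 to 0.62 for CGSP1, -0.089 to 0.30 for EGF2 and -0.23 to 0.52 for MMP16. Likeness and spread without pair A were chosen after seeing the data. Depth limits BND, CGSP1 and COLP1alpha most.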
